A study of Mus musculus with 6 samples.

Results

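The 7 genes described here encode the chains of the collagens of cartilage, types II, IX, XI and XXVII. They are Col2a1, Col9a1, Col9a2, Col9a3, Col11a1, Col11a2 and Col27a1, and were taken by symbol from a table of 15803 genes. RNA was measured in 6 libraries of growth plate cartilage from mouse embryos at embryonic day 18.5. Of these, 3 libraries (WT) were made from embryos of genotype Hnrnpk fl/fl and 3 (CKO) from embryos of genotype Col2a1-Cre;Hnrnpk fl/fl, so both genotypes carried the floxed allele and only CKO carried Cre. In CKO the Cre recombinase was driven by regulatory sequences of Col2a1, itself one of the 7 genes, so that the deletion was directed to chondrocytes, while other cells of the dissection may keep the gene. Embryos of both sexes were used in the study, and the labels do not say whether each library came from a separate embryo, so p-values measure only the spread between these libraries. The comparison asked how loss of Hnrnpk, which encodes an RNA-binding protein, changed the RNA of the cartilage collagens.

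Collagens are trimers of chains wound into a triple helix. Type II collagen, a trimer of the Col2a1 product, makes up the bulk of the cartilage fibril. Type XI collagen lies within the fibril and limits its width, and is built from the products of Col11a1 and Col11a2 together with a chain that also comes from Col2a1. Type IX collagen, built from the products of Col9a1, Col9a2 and Col9a3, sits on the fibril surface, and type XXVII collagen, from Col27a1, is a fibrillar collagen of cartilage that lies close to the mineralizing zone. The transcription factor Sox9, with Sox5 and Sox6, activates several of these genes in chondrocytes.

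Values are CPM, the reads of a gene per 1000000 reads of its library. Libraries held 1153871 to 1454094 recovered reads, so that 1 read was worth 0.688 to 0.867 CPM, and each of the 7 genes had at least 28 reads in every library. Hnrnpk was at 842, 955 and 944 CPM in WT 1, 2 and 3, against 759, 949.9 and 780.0 CPM in CKO 1, 2 and 3. The genotypes overlapped for Hnrnpk (log2 fold change -0.14, limma's adjusted p = 0.622), so WT and CKO below are names of labels, on which every direction rests. These values cover the whole of Hnrnpk, and reads on its floxed exons alone were not analysed here. All 9 markers chosen for chondrocytes were detected, with a summed level of 20809 to 26134 CPM in WT and 4078 to 4246 CPM in CKO, and limma called 6 of the 9 lower in CKO at an adjusted p under 0.05. Of the other 3, Sox9 and Hapln1 had log2 fold changes of -0.83 (adjusted p = 0.137) and -0.20 (adjusted p = 0.518), and Cytl1 one of 1.5 (adjusted p = 0.0712). Of these 9, Matn1, Matn3, Acan and Hapln1 are also among the fibril partners below and Sox9 among the transcription factors. The tissue is bulk cartilage, and fewer chondrocytes and less RNA per chondrocyte cannot be told apart in it.

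The start regions of the genes are shown because genes that moved together and genes of 1 trimer that moved unequally can then be compared by sequence. Each runs from 250 bases before to 50 bases after the annotated start (RefSeq, GRCm38.p6), and 5 of the 7 genes had an entry, not Col2a1 or Col9a3. Capitals mark the letters of 3 common promoter motifs on either strand. The GC box is spelled GGGCGG. The TATA box is searched as TATAAA. The third is the CCAAT box, spelled as named. No match overlapped another. The first 3 genes had the larger decreases given below and the last pair had the smaller ones.
Col9a1 (chr1:24177360-24177659, plus strand): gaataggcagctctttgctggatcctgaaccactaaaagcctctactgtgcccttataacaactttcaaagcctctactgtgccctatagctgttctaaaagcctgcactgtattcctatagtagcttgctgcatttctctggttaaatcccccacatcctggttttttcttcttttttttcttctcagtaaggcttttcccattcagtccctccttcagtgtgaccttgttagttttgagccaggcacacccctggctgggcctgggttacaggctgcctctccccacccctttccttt
Col9a2 (chr4:121039316-121039615, plus strand): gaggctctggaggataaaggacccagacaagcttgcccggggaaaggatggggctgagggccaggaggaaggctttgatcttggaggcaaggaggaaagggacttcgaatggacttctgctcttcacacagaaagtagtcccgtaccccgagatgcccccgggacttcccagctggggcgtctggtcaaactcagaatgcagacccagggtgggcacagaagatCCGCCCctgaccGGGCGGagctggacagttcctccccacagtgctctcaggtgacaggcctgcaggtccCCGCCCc
Col11a2 (chr17:34038888-34039187, plus strand): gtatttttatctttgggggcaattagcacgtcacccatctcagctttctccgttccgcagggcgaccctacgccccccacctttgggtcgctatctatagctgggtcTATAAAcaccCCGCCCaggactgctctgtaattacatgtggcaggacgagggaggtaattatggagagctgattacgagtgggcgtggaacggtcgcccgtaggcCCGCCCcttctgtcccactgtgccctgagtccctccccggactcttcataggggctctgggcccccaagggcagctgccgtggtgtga
Col11a1 (chr3:114030290-114030589, plus strand): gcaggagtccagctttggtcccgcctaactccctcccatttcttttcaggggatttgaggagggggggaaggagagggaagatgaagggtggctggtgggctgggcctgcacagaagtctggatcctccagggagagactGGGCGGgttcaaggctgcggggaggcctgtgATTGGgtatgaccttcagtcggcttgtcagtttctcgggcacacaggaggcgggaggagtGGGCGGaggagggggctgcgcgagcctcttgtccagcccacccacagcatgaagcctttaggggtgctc
Col27a1 (chr4:63215162-63215461, plus strand): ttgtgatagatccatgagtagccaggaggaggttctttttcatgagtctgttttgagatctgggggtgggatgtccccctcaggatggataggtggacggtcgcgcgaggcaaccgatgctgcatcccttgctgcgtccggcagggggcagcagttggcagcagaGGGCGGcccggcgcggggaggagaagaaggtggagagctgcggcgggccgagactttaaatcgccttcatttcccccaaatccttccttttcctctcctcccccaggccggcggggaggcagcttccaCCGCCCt

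Of these windows, Col9a2 held 3 GC boxes, and Col11a2, Col11a1 and Col27a1 held 2 each. A GC box stood in 35.7% of 32851 mouse promoters of the same length. Col11a1 also held a CCAAT box on the reverse strand (37.4% of promoters), and Col11a2 a TATA box 143 bases before the start (13.6% of promoters). The printed window of Col9a1, at the upstream of its annotated starts, held no match, while a further Col9a1 window at chr1:24194953-24195252 held a CCAAT box 18 bases before the start. The core letters bound by SOX proteins, ACAATG (12.6% of promoters) and ACAAAG (18.7%), were searched on both strands and were in none of the 6 windows of these genes. The GC content of the printed windows was 47.3% for Col9a1, 61.7% for Col9a2, 59.0% for Col11a2, 62.3% for Col11a1 and 61.7% for Col27a1, beside a median of 52.7% over all promoters. The RefSeq start lay 181 bases from the nearest transcript start of the gene annotation used for positions (GENCODE M21) in Col9a2 and 299 bases in Col11a2, and at the same base in Col9a1, Col11a1 and Col27a1. A match is a description of the letters, and the gene bodies, where regulatory elements of these genes also lie, were not searched.

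All 7 genes were lower in CKO. The decreases were unequal in size, from 2.05-fold for Col2a1 to 7.19-fold for Col9a3, each as the ratio of the genotype means. With limma, fitted to log2(CPM + 1) and adjusted for all genes tested, 7 of 7 were called lower at an adjusted p under 0.05, beside 2.6% of the 12155 genes tested (3.18% were called higher and 5.78% in either direction). In all 7 every CKO library lay below every WT library, as it did in 13.2% of the genes tested, and the exact two-sided permutation p for each gene was 0.1, the smallest that 3 libraries against 3 allow. By the criterion of the study, a log2 fold change below -1 with an unadjusted p under 0.05, 7 of 7 were lower, beside 5.1% of the genes tested.

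**Figure D1:**
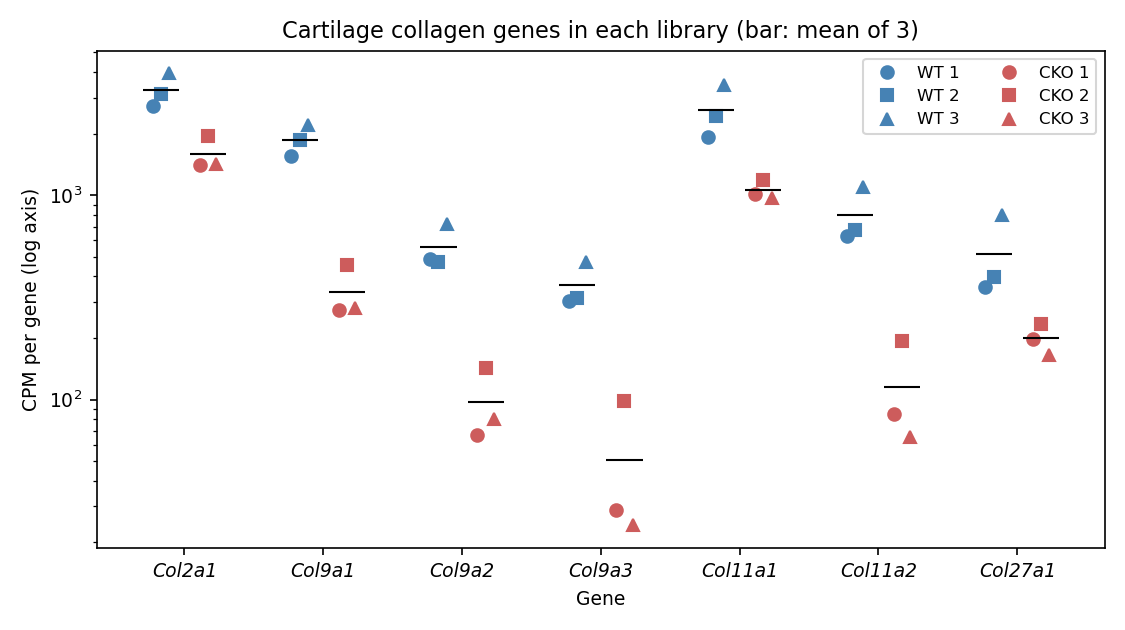
Level of each of the 7 genes in each library, in CPM on a log axis, with WT libraries in blue, CKO libraries in red, and a bar at the mean of 3 libraries. WT 3 and CKO 2 are the highest library of their genotype for every gene, and the ratio of the WT mean to the CKO mean is largest for Col9a3 and Col11a2.

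Col2a1 (ENSMUSG00000022483; chr15:97975602-98004695, minus strand, GRCm38) encodes the chain of type II collagen and had the most reads of the 7 genes. It was at 2720.2, 3133 and 3944 CPM in WT 1, 2 and 3, against 1411, 1950.2 and 1427 CPM in CKO 1, 2 and 3. Its lowest WT library was 1.39-fold its highest CKO library, the narrowest gap among the 7 genes. The mean fell from 3266 ± 623 CPM (SD, n = 3) to 1596 ± 307 CPM (SD, n = 3), with a log2 fold change of -1.03 (standard error 0.19, 95% confidence interval -1.44 to -0.62, limma's adjusted p = 0.0119). This call was lost without WT 2 (log2 fold change -1.05, limma's adjusted p = 0.0624), without CKO 1 (-0.95, adjusted p = 0.0641) and without CKO 3 (-0.96, adjusted p = 0.0694).

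The chains of type XI collagen fell to unequal degrees. Col11a1 (ENSMUSG00000027966; chr3:114030540-114220718, plus strand) was at 1935, 2441 and 3455 CPM in WT 1, 2 and 3, against 1008, 1192 and 965 CPM in CKO 1, 2 and 3. The CKO libraries lay close together, and the spread was wider in WT, where WT 3 was the highest. The mean fell 2.47-fold, from 2610.3 ± 774 CPM to 1055 ± 120.2 CPM (log2 fold change -1.27, standard error 0.21, limma's adjusted p = 0.00721). Col11a2 (ENSMUSG00000024330; chr17:34039437-34066685, plus strand) was at 628, 678 and 1097 CPM in WT 1, 2 and 3, against 85.3, 193 and 65.9 CPM in CKO 1, 2 and 3. Its lowest WT library was 3.26-fold its highest CKO library, CKO 2. The mean fell 6.99-fold, from 801 ± 257 CPM to 115 ± 68.3 CPM (log2 fold change -2.90, standard error 0.35, limma's adjusted p = 0.00225).

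Col27a1 (ENSMUSG00000045672; chr4:63214004-63334991, plus strand), which encodes the chain of type XXVII collagen, was at 354, 398 and 796 CPM in WT 1, 2 and 3, against 199, 235 and 166 CPM in CKO 1, 2 and 3. WT 3 was 2.12-fold the mean of WT 1 and WT 2, the widest spread within WT among the 7 genes. The mean fell from 516 ± 243 CPM to 199.6 ± 34.5 CPM, with a log2 fold change of -1.28 (standard error 0.28, 95% confidence interval -1.90 to -0.67, limma's adjusted p = 0.0262). Its call was lost without WT 2 (log2 fold change -1.42, limma's adjusted p = 0.0714), without CKO 1 (-1.29, adjusted p = 0.0823), without CKO 3 (-1.16, adjusted p = 0.113) and with the replicate number as a block (adjusted p = 0.0542).

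All 3 chains of type IX collagen fell by more than 5-fold. Col9a1 (ENSMUSG00000026147; chr1:24177610-24252684, plus strand) was at 1559, 1858 and 2197 CPM in WT 1, 2 and 3, against 274, 457 and 282 CPM in CKO 1, 2 and 3. It had the smallest p-value of the 7 genes, and its mean fell 5.55-fold, from 1871 ± 319 CPM to 337 ± 103.5 CPM (log2 fold change -2.50, standard error 0.22, limma's adjusted p = 3.58e-04). Col9a2 (ENSMUSG00000028626; chr4:121039385-121055322, plus strand) was at 488, 468 and 726 CPM in WT 1, 2 and 3, against 67.4, 142 and 80.6 CPM in CKO 1, 2 and 3. Its mean fell 5.80-fold, from 561 ± 143 CPM to 96.7 ± 39.9 CPM (log2 fold change -2.57, standard error 0.27, limma's adjusted p = 0.00114). Col9a3 (ENSMUSG00000027570; chr2:180597790-180622189, plus strand) had the fewest reads of the 7 genes and the largest log2 fold change, and was at 302, 313 and 473 CPM in WT 1, 2 and 3, against 28.9, 98.2 and 24.3 CPM in CKO 1, 2 and 3. Its mean fell 7.19-fold, from 363 ± 95.7 CPM to 50.4 ± 41.4 CPM (log2 fold change -3.08, standard error 0.43, limma's adjusted p = 0.00412), and in CKO the standard deviation was nearly as large as the mean. Exons of Col9a3 overlap those of Tcfl5 on the opposite strand by 234 bases. The library kit was stranded, but the strand setting of the counting is not given in the sources used here, so reads in the overlap may belong to either gene. The other 6 genes overlap no exon of another gene, and no near-identical copy of any of the 7 was found.

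The decrease of each other gene was then set against that of Col2a1, by taking the log2 value of Col2a1 out of every gene within each library and fitting limma to the differences. Col9a1, Col9a2, Col9a3 and Col11a2 fell further than Col2a1, as did 0.477% of the 12154 other genes tested, while 50.5% passed the test on the other side. The difference of the log2 fold changes was -1.46 for Col9a1 (95% confidence interval -2.03 to -0.90, limma's adjusted p = 9.86e-04). It was -1.54 for Col9a2 (-2.13 to -0.95, adjusted p = 9.73e-04), -2.05 for Col9a3 (-2.80 to -1.29, adjusted p = 7.71e-04) and -1.87 for Col11a2 (-2.52 to -1.22, adjusted p = 5.60e-04). For Col11a1 the difference of the log2 fold changes was -0.24 (-0.82 to 0.35, adjusted p = 0.462) and for Col27a1 -0.25 (-0.85 to 0.35, adjusted p = 0.450). Differences from Col2a1 of up to 0.82 and 0.85 on the log2 scale thus lay within these intervals. The exact two-sided permutation p was 0.1 for Col9a1, Col9a2, Col9a3 and Col11a2, 0.2 for Col11a1 and 0.4 for Col27a1. These differences all contain the values of Col2a1 and are not independent of each other.

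**Figure D2:**
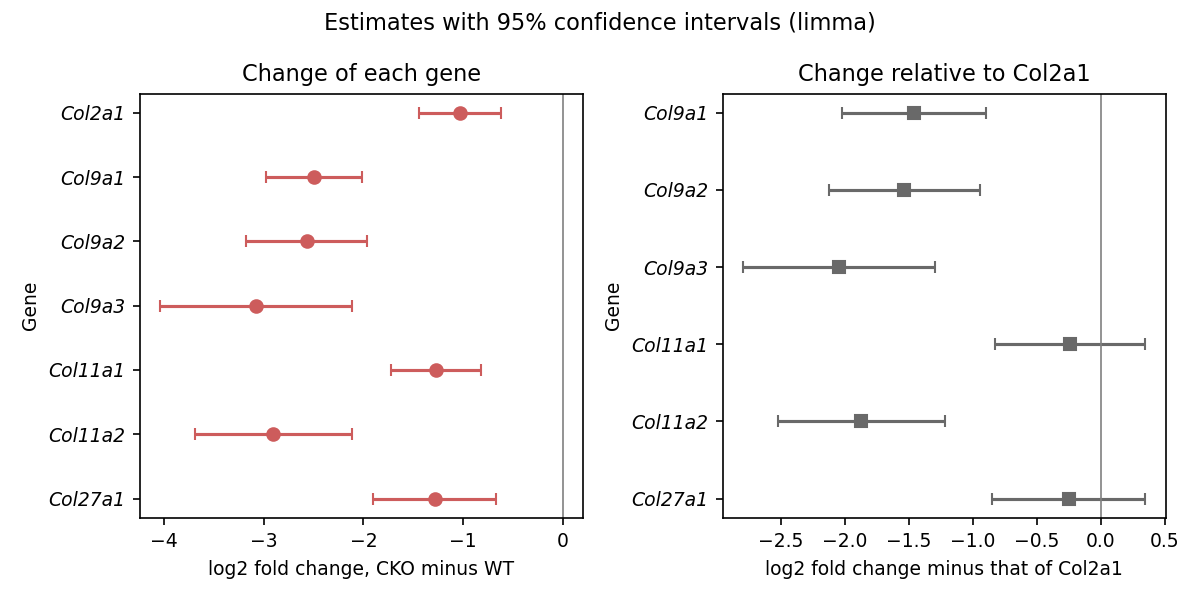
Left, log2 fold change of each gene, CKO minus WT, and right, the same minus the log2 fold change of Col2a1, both with 95% confidence intervals from limma. The 7 intervals on the left lie below 0, and on the right those of Col11a1 and Col27a1 cross 0 while those of Col9a1, Col9a2, Col9a3 and Col11a2 do not.

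Within type XI, Col11a2 and Col11a1 were compared per kb of exon, since the genes differ in exon length (6.874 and 12.744 kb of merged exons). Merged exons join those of every annotated transcript (12 for Col11a2 and 7 for Col11a1), so they need not equal the length of the transcripts present. For every 100 CPM per kb of Col11a1 there were 60.2, 51.5 and 58.8 CPM per kb of Col11a2 in WT 1, 2 and 3. In CKO 1, 2 and 3 there were 15.7, 30.0 and 12.6. The log2 ratio of Col11a2 to Col11a1 was lower by 1.63 in CKO, with no overlap between genotypes (exact two-sided permutation p = 0.1, 0.4 after Benjamini-Hochberg adjustment over 4 such ratios). Within type IX the ratios between chains overlapped between genotypes. The level of Col9a2 per 100 CPM per kb of Col9a1 was 51.2, 41.3 and 54.1 in WT 1, 2 and 3 and 40.3, 51.0 and 46.9 in CKO 1, 2 and 3, so that the genotypes overlapped (log2 ratio CKO minus WT -0.073, exact two-sided permutation p = 0.5). The level of Col9a3 per 100 CPM per kb of Col9a1 was 25.5, 22.2 and 28.3 in WT 1, 2 and 3 and 13.9, 28.3 and 11.3 in CKO 1, 2 and 3. CKO 2 lay within the WT range for this ratio, and CKO 1 and CKO 3 lay below it (log2 ratio CKO minus WT -0.58, exact two-sided permutation p = 0.4). The log2 ratio of Col9a3 to Col9a2, CKO minus WT, was -0.51 (exact two-sided permutation p = 0.4).

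The order of the levels changed with genotype. Which gene stands above another rests on the merged exon lengths and is not a measure of transcript numbers. Per kb of exon, the WT order was Col9a1 at 369 CPM per kb, Col2a1 at 353, Col11a1 at 205, Col9a2 at 181, Col11a2 at 117, Col9a3 at 94.1 and Col27a1 at 39.6. Of the neighbours in this order, Col9a1 and Col2a1, Col11a1 and Col9a2, and Col11a2 and Col9a3 differed by less than the larger of their standard deviations. In CKO Col2a1 was first at 173 CPM per kb, followed by Col11a1 at 82.8, Col9a1 at 66.6, Col9a2 at 31.3, Col11a2 at 16.7, Col27a1 at 15.3 and Col9a3 at 13.1. There Col11a1 and Col9a1, Col11a2 and Col27a1, and Col27a1 and Col9a3 did not differ beyond their spread. For every 100 CPM per kb of Col2a1, Col9a1 was at 105 ± 3.29 in WT and 38.0 ± 4.07 in CKO (SD, n = 3). By the same measure Col11a1 was at 57.2 ± 6.01 in WT and 48.4 ± 3.80 in CKO.

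Summed over the chains of each type, type IX made up 47.6 ± 1.39% of the CPM per kb of the 7 genes in WT and 27.2 ± 3.82% in CKO (SD, n = 3). Type II made up 26.1 ± 1.04% in WT and 43.7 ± 2.20% in CKO. For both, the genotypes did not overlap (exact two-sided permutation p = 0.1 each). The share of the genes specific to type XI was 23.4 ± 1.65% in WT and 25.2 ± 1.49% in CKO (exact two-sided permutation p = 0.3), with Col11a1 at 14.9% of the sum in WT and 21.2% in CKO and Col11a2 at 8.47% and 3.97%. Type XXVII was at 2.82 ± 0.655% in WT and 3.90 ± 0.490% in CKO (exact two-sided permutation p = 0.2). Shares of a sum are bound to each other, so a lower share of 1 type raises the others. They also rest on the merged exon lengths. Of all reads, the 7 genes together held 0.799%, 0.929% and 1.27% in WT 1, 2 and 3 and 0.307%, 0.427% and 0.301% in CKO 1, 2 and 3.

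**Figure D3:**
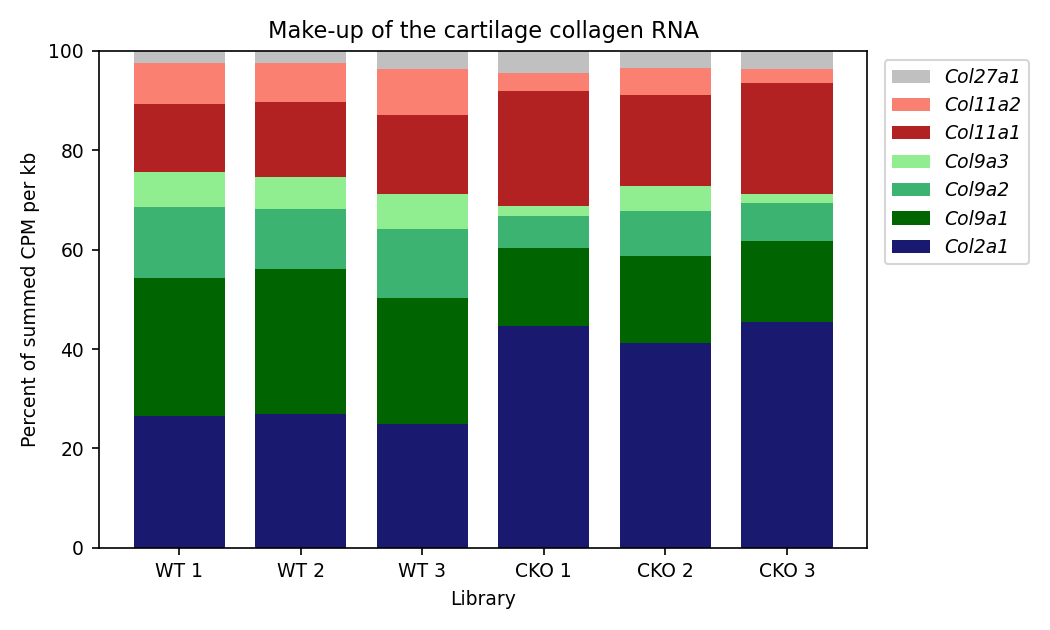
Share of each gene in the summed CPM per kb of the 7 genes, in percent, with 1 bar per library. The 3 genes of type IX, in green, take 46.3 to 49.1% of each WT bar and 24.3 to 31.5% of each CKO bar, and Col2a1, in dark blue, takes 26.1% on average in WT and 43.7% in CKO.

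The 7 genes followed a shared order of the libraries. WT 3 was the highest WT library and CKO 2 the highest CKO library in 7 of 7, an order found in 18.8% of all genes tested, in 16.4% of the 1658 averaging 100 CPM or more and in 27.2% of the 114 genes called lower at that level. Each of these sets includes the 7 genes themselves, which raises the last share most. CKO 2 was 3.69-fold the mean of CKO 1 and CKO 3 for Col9a3 and 2.55-fold for Col11a2. It was 1.92-fold that mean for Col9a2, 1.65-fold for Col9a1, 1.37-fold for Col2a1, 1.29-fold for Col27a1 and 1.21-fold for Col11a1, so that, with 1 library apart, the genes with the larger decreases also varied most among the CKO libraries. Of the 9 chondrocyte markers, none of which is a collagen, 5 followed the same order (Snorc, Acan, Matn3, Sox9 and Hapln1), and 6, with Cytl1, were highest in CKO 2 among the CKO libraries. Matn1, Ucma and Cnmd were lowest in CKO 2, and the sum of the 9 markers, in which Matn1 and Cnmd weigh most in WT, was 4246, 4078 and 4195 CPM in CKO 1, 2 and 3. Set against CKO 2 alone, the WT mean of Col9a3 was 3.70-fold higher, and set against CKO 1 and CKO 3 it was 13.7-fold higher. For Col11a2 the same ratios were 4.16 and 10.6, while for Col2a1 they were 1.67 and 2.30. Without both WT 3 and CKO 2, an alternative chosen after seeing the data, the log2 fold change was -1.04 for Col2a1, -1.14 for Col11a1, -1.05 for Col27a1, -2.61 for Col9a1, -2.68 for Col9a2, -3.11 for Col11a2 and -3.49 for Col9a3. In that fit 7 of 7 were called, beside 1098 of all 11911 genes tested called lower, with only 2 libraries a genotype to set the spread.

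Markers of other cells were read in the same libraries. CKO 2 stood apart from CKO 1 and CKO 3 in the sum of 8 osteoblast markers. The sum was 136 CPM against 1071 and 1139.6 CPM, beside 169 to 218 CPM in WT. Most of each CKO sum came from Ibsp (708, 83.0 and 808 CPM in CKO 1, 2 and 3) and Bglap2 (290, 35.4 and 257 CPM). Of the other osteoblast markers tested, Alpl, Bglap and Dmp1 were also lowest in CKO 2 among the CKO libraries. Sp7 was not, at 4.13, 4.33 and 4.33 CPM. The sum of 8 skeletal muscle markers in CKO 2 was 255 CPM against 106 CPM in both CKO 1 and CKO 3, beside 43.5 to 199 CPM in WT. Myog alone held 179 CPM in CKO 2, against 15.1 and 13.0 CPM in CKO 1 and CKO 3. Of the other muscle markers tested, Tnnc2 and Mylpf were lowest in CKO 2 among the CKO libraries, and Ckm was highest there at 3.61 CPM. For the 4 erythroid markers with values the sum in CKO 2 was 28.9 CPM, against 2.06 and 6.07 CPM in the other CKO libraries and 0.725 to 5.25 CPM in WT. Hba-a2 held 28.1 CPM of the sum in CKO 2. Hba-a1 was at 0.722 CPM there, against 0.688 and 3.47 CPM in CKO 1 and CKO 3. WT 3 held the highest WT sum of 8 perichondrium and tendon markers, 406 CPM against 155 and 168 CPM, beside 109 to 132 CPM in CKO. It also held the highest WT sum of 8 macrophage and osteoclast markers, 389 CPM against 153 and 160 CPM, beside 293 to 313 CPM in CKO, where Cd68 was called higher. Lyz2 held 270 CPM of the sum in WT 3. Ctsk was lowest in WT 3 among the WT libraries, and the other macrophage and osteoclast markers were highest there. The 8 hypertrophic chondrocyte markers summed to 1445 to 4565 CPM in WT and 12351 to 14474 CPM in CKO, with Spp1 the largest part of each sum. The sum therefore follows Spp1 and not the list. Of the 7 markers tested, limma called 1 higher, Spp1, and 0 lower. Log2 fold changes were positive for 3 (Spp1, Mmp13 and Col10a1) and negative for 4 (Pth1r at -0.91, Runx2, Mef2c and Panx3). Col10a1, the collagen of hypertrophic chondrocytes, held 13.1, 15.8 and 43.9 CPM in WT 1, 2 and 3, against 24.8, 45.5 and 16.5 CPM in CKO 1, 2 and 3. The 7 keratinocyte markers with values summed to 22.0 to 42.8 CPM in WT and 72.9 to 120.3 CPM in CKO, with Sbsn called higher, and the 5 endothelial markers with values were near 0, at 4.33 CPM or less in each library. The part of these cells in the collagen values was not tested.

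A list of 16 genes held transcription factors that act on cartilage collagen genes, together with Wwp2, which is not a transcription factor. Of these genes 13 could be tested, and limma called 0 of them higher or lower. At an unadjusted p under 0.05 in limma 4 of the 13 passed, 2 in each direction, and edgeR's quasi-likelihood test and DESeq2 called 0 each at their adjusted thresholds. Sox9 was at 68.1, 81.8 and 102.2 CPM in WT 1, 2 and 3, against 42.0, 73.6 and 32.1 CPM in CKO 1, 2 and 3, with CKO 2 within the WT range (log2 fold change -0.83, limma's adjusted p = 0.137). Wwp2, which encodes a ubiquitin ligase that binds Sox9, was at 541, 534 and 818 CPM in WT 1, 2 and 3, against 332, 517 and 339.7 CPM in CKO 1, 2 and 3, with no overlap between genotypes (log2 fold change -0.67, limma's adjusted p = 0.111). Sox5 and Sox6 had log2 fold changes of 0.50 (limma's adjusted p = 0.439) and -0.36 (adjusted p = 0.511). The median log2 fold change of the list was 0.21, beside 0.013 over all genes tested and -2.50 over the 7 collagen genes. The list median was 0.022 without CKO 3, 0.088 without CKO 2 and 0.37 without WT 3. Without CKO 2, limma called 3 of these genes, with log2 fold changes of -1.15 for Sox9 (adjusted p = 0.00888), -0.88 for Wwp2 (adjusted p = 0.0131) and 1.32 for Arid5b (adjusted p = 0.0183), so that the absence of calls rested on 1 library. The choice of Sox9, Wwp2, Sox5, Sox6 and Arid5b was made with their values in view.

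Of the genes for modification, folding and export of collagen in the endoplasmic reticulum, 20 of 21 were tested, of which 4 were lower in CKO. Plod1 and Plod2, which encode lysyl hydroxylases, had log2 fold changes of -1.41 (limma's adjusted p = 0.00196) and -1.30 (adjusted p = 0.0126). P4hb, a subunit of prolyl hydroxylase, fell from 3324 CPM to 2049 CPM (log2 fold change -0.70, adjusted p = 0.0152), and Fkbp14, a prolyl isomerase, had a log2 fold change of -1.43 (adjusted p = 0.0436). The median of the list was -0.58, and -0.32 without WT 3. The count of 4 fell to 1 without WT 1, without CKO 1 and without CKO 3, to 2 without WT 2 and to 3 without WT 3, and rose to 8 without CKO 2. Plod1 kept its call in each of these fits. Of the genes for processing and crosslinking outside the cell, 10 of 11 were tested. Loxl4 and Loxl3, which encode lysyl oxidases, rose by 1.41 (limma's adjusted p = 0.00935) and 1.29 (adjusted p = 0.0244) on the log2 scale, and Pcolce2, an enhancer of procollagen cleavage, had a log2 fold change of -1.47 (adjusted p = 0.00915). Without WT 1 none of these 3 genes was called (adjusted p = 0.0592 for Loxl4, 0.122 for Loxl3 and 0.0596 for Pcolce2), and without CKO 3 neither Loxl4 (adjusted p = 0.0536) nor Loxl3 (0.0643) was. Loxl3 was also not called without WT 2 (0.120) or without CKO 1 (0.0609), nor with the replicate number as a block (0.0507). The median of this list was 0.041.

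Among the non-collagen partners of the fibril, 16 of 17 were tested, and 6 were lower. Matn1, a matrilin, had a log2 fold change of -3.76, and Comp, which binds collagens II and IX, one of -3.08 (limma's adjusted p = 2.26e-05 for both). The change of Matn1 was larger than that of any of the 7 collagen genes, and that of Comp was about that of Col9a3. Matn3, a further matrilin, had a log2 fold change of -1.57 (adjusted p = 0.0438) and Acan, the aggrecan gene, one of -1.50 (adjusted p = 0.00859). The small proteoglycan genes Dcn and Fmod had log2 fold changes of -1.89 (adjusted p = 0.00429) and -1.28 (adjusted p = 0.0222). Their libraries were ordered otherwise than in the collagen genes, since CKO 2 was the lowest library for both, at 183 CPM for Dcn and 167 CPM for Fmod. CKO 2 was also the lowest library for Matn1, at 356 CPM, and Comp, at 165 CPM. For Matn3, at 274 CPM, and Acan, at 276 CPM, it was the highest CKO library, as in the collagen genes. The median of the list was -0.92. The count of 6 was 4 without WT 1, without WT 2 and without WT 3, 5 without CKO 1 and without CKO 3, and 8 without CKO 2, and Matn1, Comp, Acan and Dcn kept their calls in each. Hapln1, the link protein gene of cartilage, stood at 847, 966 and 1189 CPM in WT 1, 2 and 3, against 837, 891 and 869 CPM in CKO 1, 2 and 3, with overlap (log2 fold change -0.20, adjusted p = 0.518).

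Of the 35 other collagen genes in the table, 26 were tested, of which 3 were lower. The median log2 fold change over the 26 was -0.43, and -0.20 without CKO 3 and -0.21 without WT 3. Col1a2, a chain of type I collagen, was at 469.7, 586 and 759 CPM in WT 1, 2 and 3, against 327, 212 and 309 CPM in CKO 1, 2 and 3 (log2 fold change -1.09, limma's adjusted p = 0.0191). CKO 2 was its lowest library, where it was the highest CKO library for the cartilage collagens. Col5a1 had a log2 fold change of -0.89 (adjusted p = 0.0391), and Col26a1 one of -1.95 (adjusted p = 0.0382) from 18 reads over the WT libraries and 2 over the CKO libraries. The count of 3 was 0 without WT 2 and without CKO 3, 1 without WT 1, without WT 3 and without CKO 1, and 7 without CKO 2. Of the collagen receptors and collagenases, 12 of 14 were tested, and limma called 0 of them, with a median of 0.23, and 0.37 without WT 3. At an unadjusted p under 0.05 in limma 2 of the 12 passed, 1 in each direction. The criterion of the study also asks for a log2 fold change past 1. By it only Mmp13 passed (log2 fold change 1.81, limma's unadjusted p = 0.0139). At their adjusted thresholds edgeR's quasi-likelihood test and DESeq2 called 0 each. Without CKO 2, the collagenase gene Mmp13 (log2 fold change 2.66, limma's adjusted p = 9.29e-04) and the integrin gene Itgb1 (-0.60, adjusted p = 0.0464), both named after their values were seen, were called. The lists were read with each gene's own test, and the differences between lists were not tested.

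**Figure D4:**
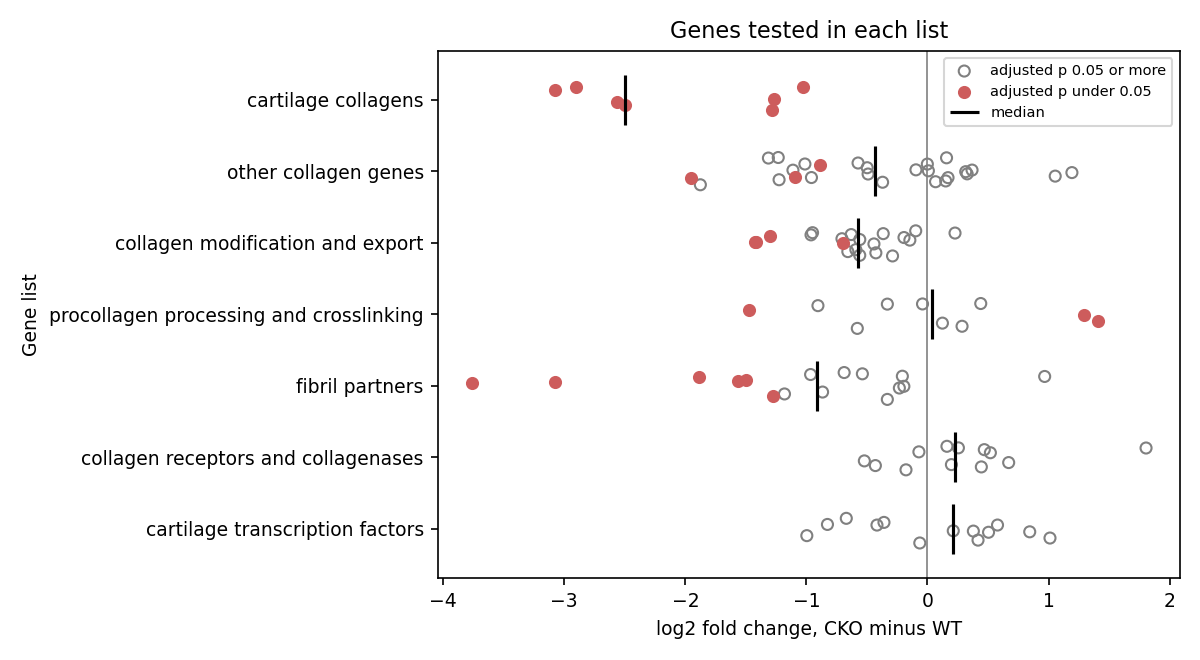
Log2 fold change, CKO minus WT, of each tested gene in 7 lists, with red points for an adjusted p under 0.05 in limma and a black line at the median of each list. The 7 cartilage collagens lie between -3.08 and -1.03, and the medians of the other lists lie between -0.92 and 0.23.

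The genes most like the cartilage collagens were sought by the root mean square difference, over the 6 libraries, from the mean log2 profile of the 7 genes, each profile being centred on its WT mean. Among 5015 genes averaging 20 CPM or more, the median difference was 1.58, and the 7 genes themselves stood at 0.308 to 0.776. Snorc, which encodes a small proteoglycan of chondrocytes, was nearest at 0.0999. It was at 2099.8, 1990.2 and 3097 CPM in WT 1, 2 and 3, against 420.2, 874 and 434 CPM in CKO 1, 2 and 3, so that it too was highest in WT 3 and CKO 2. Mia followed at 0.283, a small secreted protein of cartilage, and its CKO libraries lay close together at 261, 271 and 258 CPM. The next were Ncmap at 0.285, Ppp1r1b at 0.324, Slc39a11 at 0.375, Gpt2 at 0.384, Kctd4 at 0.388 and Igfbp7 at 0.397. All 8 genes were lower in CKO, with log2 fold changes from -2.37 to -1.72, which the choice by likeness to a falling profile fixes. None of the 7 collagen genes lay in that range. Col27a1, Col11a1 and Col2a1 stood at -1.28 to -1.03, and Col9a1, Col9a2, Col11a2 and Col9a3 at -3.08 to -2.50. Likeness here is thus to an average that falls between these groups, not to any single collagen gene.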

How the data were processed

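RNA of growth plate cartilage was read in 3 WT and 3 CKO libraries, prepared with a stranded mRNA kit. The deposited values are CPM per gene, made by the authors. The submitters' processing notes name cutadapt 2.5, HISAT2 and featureCounts 1.6.3, while the genome build and annotation are not given in the sources used here. Of the values, 100% were whole multiples of 1 read within 0.01 reads, and the reads recovered per library (1153871 to 1454094) set the precision, with 3 reads worth 2.06 to 2.60 CPM. This floor covers counting error only, while the confidence intervals come from limma and rest on the spread between libraries.

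With limma 3.58.1 in R 4.3.3, log2(CPM + 1) was modelled on genotype for the 12155 genes averaging 1 CPM or more, with trended empirical Bayes moderation, and p-values were adjusted over all genes tested by Benjamini-Hochberg. The added 1 CPM pulls fold changes of low genes towards 0. Single values were compared with exact two-sided permutation tests. Exon lengths and positions were taken from GENCODE M21 (GRCm38), in which 15212 of 15217 Ensembl identifiers were found, and start regions from RefSeq. Copies of the 7 genes were sought with BLAST at 90% identity over at least 300 bases. Marker lists held 6 to 9 genes each.

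The genes named are the 7 collagen genes, up to 6 genes per list past an adjusted p of 0.05 in order of p, Hnrnpk, the defining markers and the 8 genes nearest to the collagen profile, with others said to be chosen after seeing their values. The 7 genes and all lists were chosen with earlier results of these data known. Alternatives were a pseudocount of 0.1, no filter, TMM scaling, scaling without the 7 genes, the replicate number as a block, each library left out in turn, an adjusted p of 0.01, the criterion of the study, and edgeR 4.0.16 and DESeq2 1.42.0 on the recovered reads. Scripts were tested on simulated data.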

Additional observations from a re-analysis of the deposited data

How the results depend on the processing

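All 7 genes had a negative log2 fold change in each of the 14 refits. Col9a1 (-2.73 to -2.37 with each library left out in turn), Col9a2 (-2.88 to -2.35), Col9a3 (-3.70 to -2.71), Col11a1 (-1.47 to -1.05) and Col11a2 (-3.35 to -2.59) kept their calls in all of them. Col2a1 (-1.19 to -0.89) and Col27a1 (-1.50 to -0.92) lost theirs without WT 2, without CKO 1 and without CKO 3, so that 5 to 7 of the 7 genes were called with a library left out, and 5 at an adjusted p under 0.01. The study compared littermates, and the labels do not say whether replicate numbers pair the samples. Same-numbered WT and CKO libraries correlated at 0.038, -0.13 and -0.10 in their deviations from the genotype means. The highest correlation was 0.16, between WT 3 and CKO 2. Deviations from a mean of 3 libraries are bound to each other, so these values cannot decide whether libraries were paired by litter. With the replicate number as a block, 6 of the 7 genes were called, and Col27a1 (log2 fold change -1.28, limma's adjusted p = 0.0542) was not. Over all genes the main counts were 387 higher and 316 lower. They were 225 and 160 with the block, 114 and 71 at an adjusted p under 0.01, 644 and 620 by the criterion of the study, 123 to 692 and 79 to 606 with a library left out, and 1312 and 1098 without both WT 3 and CKO 2, where only 2 libraries a genotype set the spread. TMM scaling moved the lower share of all calls from 45.0% to 51.4%.

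The differences of the 6 other genes from Col2a1 stayed on the same side of the threshold in 72 of 72 refits. Some of these refits could not move the estimate. Scaling of a library cancels in the difference, apart from the added 1 CPM, and the filter and the block leave it unchanged. For Col9a1 it was -1.463 in the main fit and in each refit of these kinds. edgeR and DESeq2 were not run on the differences. The log2 ratio of Col9a2 to Col9a1 changed sign without WT 3 (0.0050) and without CKO 1 (0.018), with a range of -0.19 to 0.018. The median of the processing and crosslinking list changed sign with no filter (-0.041), without both WT 3 and CKO 2 (-0.0029), in edgeR (-0.21), in DESeq2 (-0.14) and with a library left out (-0.24 to 0.079). With no filter the gene of the list left out by the filter entered, and the median became the value of Loxl1 (log2 fold change -0.041). edgeR tested 7704 genes and DESeq2 15793, so the genes behind their medians may differ from those of the main fit. The cause of the other changes of sign was not tested. The other collagen genes called lower ranged from 0 to 7, and those for modification and export from 1 to 10. Of the list genes and the genes nearest to the mean collagen profile, Col26a1 lost its call in 8 of 13 refits. Col5a1, Fkbp14, Matn3, Gpt2, Loxl3, P4hb, Plod2, Fmod, Col1a2, Loxl4 and Pcolce2 lost theirs in 1 to 7 of 14. A filter does not apply to ratios or shares of single genes, and a pseudocount does not apply to shares. At this depth, changes of genes near 3 reads a library could not be resolved.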
